A study of Homo sapiens with 16 samples.

Results

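Ago2 binding was followed in the genes of vesicle transport, the system of coats, tethers, fusion proteins and sorting proteins that moves cargo between the endoplasmic reticulum (ER), the Golgi, endosomes and the cell surface. Genes were taken by name from the deposited list of Ago2 peaks: SEC, VPS, SNX, STX, VAMP, SNAP, TMED, TRAPPC, SCAMP, YIPF, the coat genes COPA to COPZ, clathrin genes and the subunits of the adaptors AP-1 to AP-4 other than their alpha subunits. The names took in 33 of 2213 genes and 52 of 4718 peaks with distinct values. The 33 genes are called members below, and the name pattern uses no measured value, though it was chosen with earlier results of these data known.

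All libraries came from 293S cells, an established line derived from human embryonic kidney, which were either untreated or given 1 µM hippuristanol for 30 min. Hippuristanol blocks eIF4A, an RNA helicase that unwinds mRNA leaders so that ribosomes can load. The labels describe 2 cultures per treatment, each split into 3 aliquots for crosslinking and immunoprecipitation (CLIP) with Ago2 antibodies of 3 suppliers and 1 aliquot for RNA-seq. The antibody libraries of a culture are therefore aliquots and not separate replicates. For each peak the authors' deposited table gives 1 log average over both treatments and 1 log ratio of hippuristanol over untreated. It holds no value per library, and how libraries were pooled is not stated. A positive log ratio is a higher normalized Ago2 signal with hippuristanol, and the log average is the corresponding normalized level. The kind of normalization is not stated, so the log average need not follow the number of reads at a peak or the abundance of the mRNA. The median log ratio over the peaks of a gene is called its gene value. Which base the logarithm has is not stated in the sources, so values are in the authors' log units and not folds. No value had a replicate check, no test between treatments could be made, and RNA levels were not analysed here. Depth per library is unknown. Changes in Ago2 binding and in the amount of the mRNA cannot be told apart in these values. Peaks were absent from 13 marker genes of other cell types (blood, liver, connective tissue, epithelium, glia and muscle). Only 10.4% of 20052 protein-coding genes had a peak, so this absence is no check of cell identity.

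As background, Argonaute proteins carry microRNAs, whose seed (bases 2 to 8) pairs with matching sites, mostly in 3′ untranslated regions (3′ UTRs), and lower the translation and stability of the mRNA. In the secretory pathway, COPII coats bud vesicles from the ER, COPI coats return proteins from the Golgi, and p24 proteins (TMED) help to select cargo. TRAPP and other tethers catch vesicles, and SNAREs (syntaxins, VAMPs and SNAPs) fuse them with their target membrane. Clathrin and its adaptors bud vesicles at the cell surface, the trans-Golgi network and endosomes, and sorting nexins, retromer and ESCRT decide whether endosomal cargo is recycled or degraded.

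The microRNA sites of the bound 3′ UTRs are shown first. They are sequence matches, and which microRNAs these cells hold was not examined. All 33 genes were matched to a GENCODE 29 transcript by the RefSeq identifier in the table, and 20 of them had a 3′ UTR peak. The 3′ UTRs of these 20 had a median length of 2379 nt (66 to 14891 nt), against 1611 nt for 1492 matched genes with a 3′ UTR peak. Their median GC content was 39.2%, against 39.4%. Sites of 8 microRNA families were searched on the transcript strand as exact 7-base matches to the seed. The table's coordinates are hg19 and the transcripts are on GRCh38, so whether a site lies under a peak was not examined. Mature sequences are those of RefSeq on GRCh38.p14, with the seed in capitals, and sites are given 5′ to 3′ with the match in capitals.

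Only SNX17, STX3 and TRAPPC1 had a let-7 site (CTACCTC), that is 3 of the 20 (15%), against 12.5% of the 1492 genes. They were also the members with 3 or more 3′ UTR peaks, 3 of 3, where 0 of the 17 members with fewer 3′ UTR peaks had such a site. Among all 251 genes with 3 or more 3′ UTR peaks the share with a let-7 site was 15.9%, and among the 1241 with fewer it was 11.8%. The peaks of STX3 overlap or adjoin, and TRAPPC1 also has adjoining peaks, so the number of peaks need not be a number of separate sites. A link between let-7 sites and peak number was not tested, and 3 members are too few to show it. The microRNA and the sites, on GRCh38, were as follows.
let-7a-5p: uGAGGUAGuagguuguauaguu
SNX17, chr2:27377111-27377133, plus strand: cagcctgactgctgcCTACCTCt
STX3, chr11:59801175-59801197, plus strand: aggtgctgtatttttCTACCTCa
TRAPPC1, chr17:7930592-7930605, minus strand: agcaacCTACCTCa
The TRAPPC1 site starts 7 nt after the stop codon, in a 3′ UTR of 261 nt, and its window is cut short by the stop codon. The SNX17 site starts 407 nt after it in 814 nt, and that of STX3 366 nt after it in 1882 nt.

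Sites of miR-30 (TGTTTAC) were the most frequent of the 8 families among the members, in 9 of 20 (45.0%), against 26.6% of the 1492 genes, beside the longer 3′ UTRs of the members. The part of UTR length in this share was not tested. Sites of some of the 9 are shown, chosen to include both ends of the log ratio, STX2 and SNX8 high and STX6 low. Those of CLTC, SEC24A, STX7 (gene values −0.08, −0.17 and −0.06) and YIPF6 (0.72) are not shown. In every site shown, and in both sites of SEC24A, the base after the match is a, while other bases follow it in CLTC, STX7 and YIPF6. In this base the sites shown therefore do not stand for all 9 genes.
miR-30a-5p: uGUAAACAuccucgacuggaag
STX2, chr12:130789715-130789737, minus strand: tcttcaaatatttcaTGTTTACa
SNX8, chr7:2251822-2251844, minus strand: cccaacaactggaatTGTTTACa
VAMP3, chr1:7780192-7780214, plus strand: cattagatttgaagaTGTTTACa
TMED10, chr14:75134392-75134414, minus strand: tacccttagctgaaaTGTTTACa
STX6, chr1:180974850-180974872, minus strand: ggtgattgacatccaTGTTTACa
The median gene value was −0.04 for the 9 members with a miR-30 site and 0.29 for the other 11. Over all 1492 genes the medians were 0.20 with and 0.15 without a site. Among the members, a lower median with a site was not particular to miR-30, as given below.

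Sites of miR-17 (GCACTTT) occurred in 7 of the 20 (35%, against 32.5%), and those of miR-15/16 (TGCTGCT) in 7 (35%, against 33.6%). The miR-19 site (TTTGCAC) was in 7 (35%, against 26.7%), the miR-92/25 site (GTGCAAT) in 3 (15%, against 19.0%), the miR-103 site (ATGCTGC) in 3 (15%, against 18.0%) and the miR-10 site (ACAGGGT) in 1, SNX9 (5%, against 13.9%). The miR-15/16 and miR-103 sites overlap by 6 bases where both occur, as in SEC24A and VPS4A. Among the 20 members, the median gene value was also lower with a site for miR-17 and miR-19 (−0.06 against 0.58 for each). The same held for miR-15/16 (−0.05 against 0.47), miR-92/25 (−0.17 against 0.47), miR-103 (0.08 against 0.29) and miR-10 (−0.62 against 0.29). For let-7 it was higher with a site, 0.47 against 0.08. Several members carry sites of more than 1 family, and these differences were not tested.

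The peaks of the members all lay in mRNA. Of the 52, 30 (57.7%) were in 3′ UTRs, 18 (34.6%) in coding sequence and 4 (7.69%) in 5′ UTRs. Of all 4028 peaks in mRNA, 71.8% were in 3′ UTRs and 23.6% in coding sequence. The 18 coding peaks came from 13 genes, with 4 in CLTC and 2 each in VPS13A and YIPF5. Members had 1 peak in 20 genes, 2 in 9 and 3 or more in 4, and the most, 5, were in CLTC. Genes with a single peak made up 60.6% of the members, against 66.1% of all genes. By current RefSeq symbols 196 protein-coding genes match the names, and 34 (17.3%) had a peak, against 10.4% of 20052 protein-coding genes. The additional gene is TRAPPC14, listed as C7orf43, with 2 peaks and a gene value of −0.39. No peak was listed for the 8 genes named SEC61, SEC62, SEC63 or SEC11, which belong to the ER translocon and signal peptidase. The same held for the 6 genes named VPS26, VPS29 or VPS35 (among them the retromer subunits), the 5 SCAMPs and the 6 SEC14-like genes. SPCS1 and SPCS3, signal peptidase genes outside the name pattern, had 1 peak each. A gene without a peak in the table need not lack Ago2, because how peaks were called is not stated in the sources.

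The vesicle transport genes had a median log ratio close to that of all genes, with single genes on both sides. The gene values had a median of 0.18 over the 33 members (95% order-statistic interval −0.08 to 0.59), against 0.17 over all 2213 genes. The value over all genes, 0.17, is called the level. Above that level lay 17 members (51.5%, exact Clopper-Pearson interval 33.5% to 69.2%), against 50.0% of all genes. Above 0 lay 18 members, where 60.5% of all genes did. More than 0.5 above the level were 9 members (27.3%, against 21.0% of all genes), and more than 0.5 below it 7 (21.2%, against 22.1%). Gene values had an SD of 0.65 over the members and 0.64 over all genes. By single peaks, 6 of 52 had a log ratio above 1 (11.5%, against 11.3% of all peaks) and 1 below −1 (1.92%, against 4.22%). The intervals treat genes as independent and describe the spread over genes, not between cultures.

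**Figure D1:**
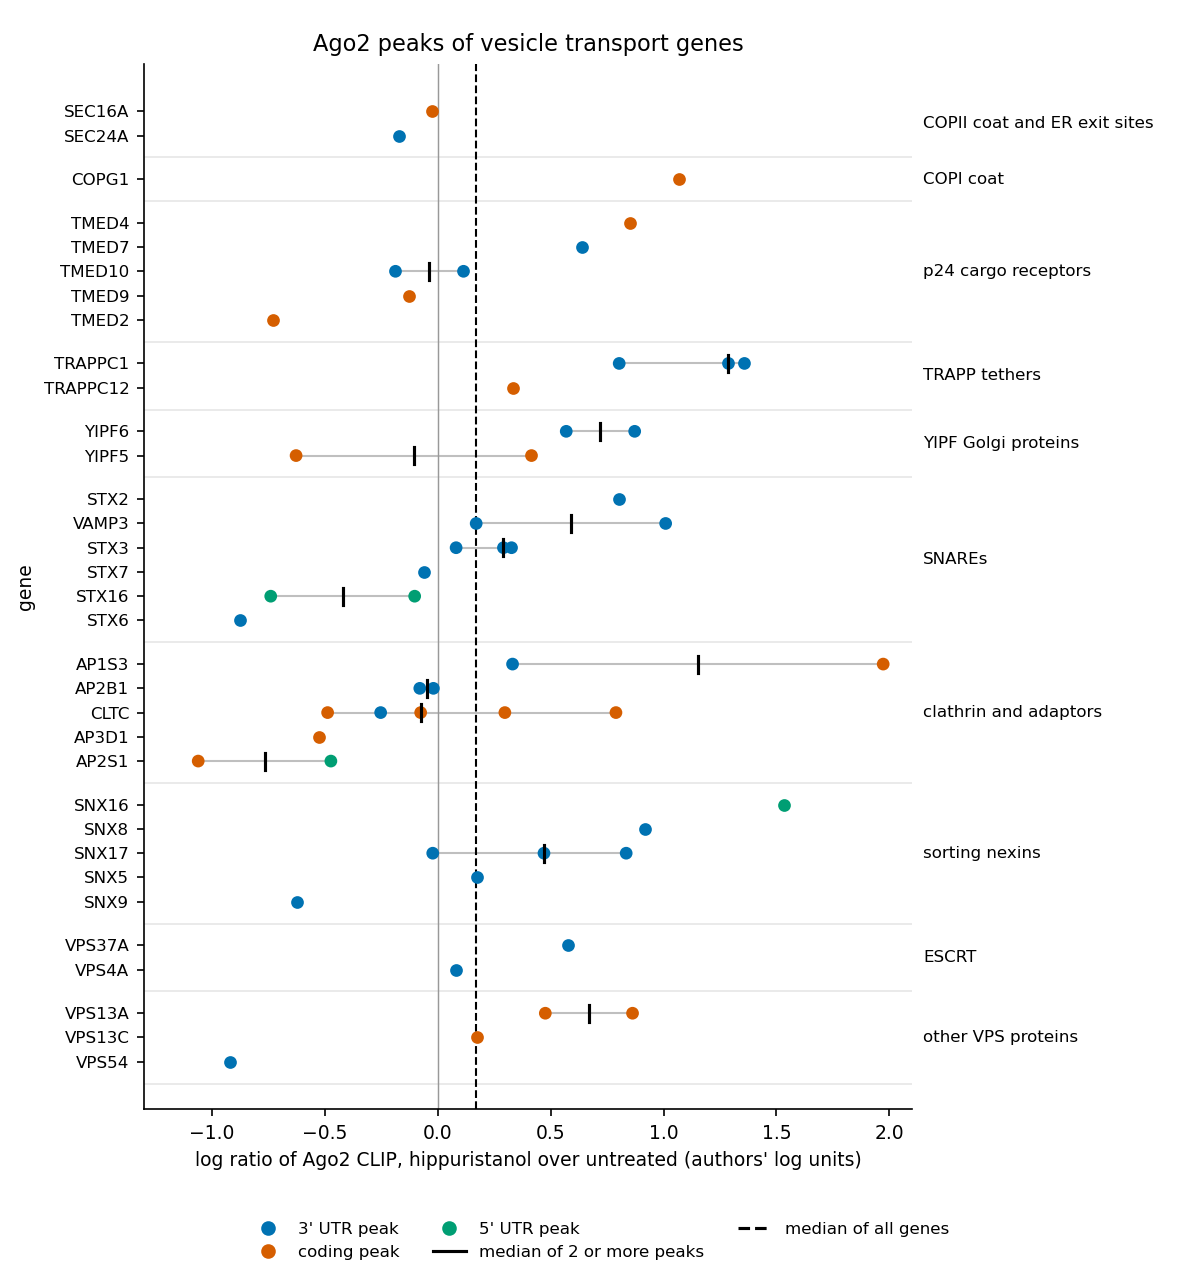
Each point is 1 Ago2 peak of a vesicle transport gene, placed by its log ratio of hippuristanol over untreated (authors' log units) and coloured by annotation; rows are the 33 genes in role groups, ticks are medians of genes with 2 or more peaks, and the dashed line is the median of all genes at 0.17. Values run from −1.06 in AP2S1 to 1.97 in AP1S3, and most role groups with several genes hold values on both sides of the line.

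**Figure D2:**
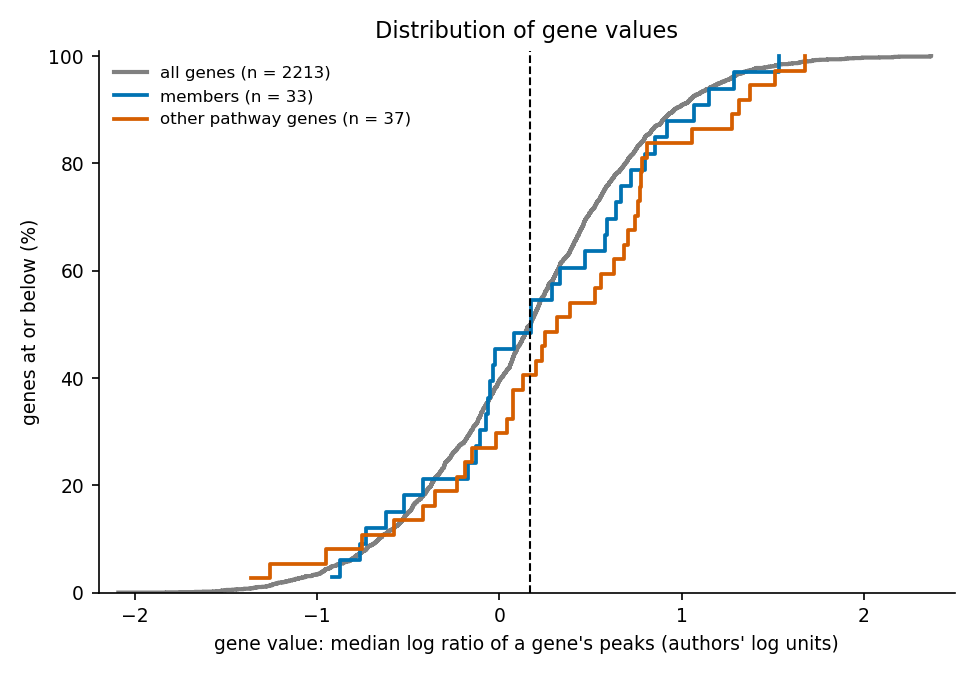
Cumulative share of genes (%) against the gene value (authors' log units) for all 2213 genes, the 33 members and 37 other genes of the pathway. The curve of the members crosses that of all genes near the dashed level of 0.17, and the curve of the other pathway genes reaches 50% further right, at their median of 0.32.

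At the ER exit, both measured COPII genes lay below the level and near 0. SEC16A, the scaffold of ER exit sites, had 1 coding peak (chr9:139358010-139358035, minus strand, hg19) at −0.02 in the authors' deposited table. The 3′ UTR peak of SEC24A, a cargo-binding subunit of the COPII coat, had −0.17 in the authors' deposited table. For COPI the only peak lay in the coding sequence of COPG1, the gamma subunit of that coat (chr3:128969540-128969563, plus strand), and had 1.07 in the authors' deposited table. Its gene value ranked at place 4 of 33. With 1 or 2 peaks per coat these values describe single sites.

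The p24 family was the most completely represented, with 5 of 11 genes, and its members were spread across the range. TMED4 had a gene value of 0.85 and TMED7 of 0.64, both above the level, while TMED10 had −0.04, TMED9 −0.13 and TMED2 −0.73. The TMED4 peak (chr7:44620768-44620797, minus strand) had a log average of −3.39, and that of TMED2 (chr12:124081229-124081260, plus strand) one of −8.26, both in coding sequence. TMED2 and TMED10, partners in p24 complexes, thus both lay below the level, TMED2 by 0.90 and TMED10 by 0.21. TMED10 had 3′ UTR peaks of 0.11 and −0.19 in the authors' deposited table, 1356 nt apart, and GENCODE lists 2 pseudogenes named after it that may share its reads, as it lists 1 each for SEC24A and SNX5.

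Of the TRAPP genes with a peak, TRAPPC1 and TRAPPC12 lay above the level, and TRAPPC14, outside the name pattern as C7orf43, lay 0.56 below it. TRAPPC1, a core subunit of the TRAPP tethers, had 3 peaks annotated to its 3′ UTR, with log ratios of 1.29, 1.36 and 0.80 from 5′ to 3′ in the authors' deposited table. The first 2 (chr17:7833903-7833962 and chr17:7833873-7833902, minus strand) adjoin each other, and the last (chr17:7833684-7833719) lies 154 nt further on. Its gene value of 1.29 was the highest among members with 2 or more peaks, with no peak at or below the level, and the peaks together covered 123 nt. They spanned 278 nt of the genome, more than the 261 nt of the 3′ UTR in the matched transcript. TRAPPC12, another TRAPP subunit, had 0.33 at 1 coding peak in the authors' deposited table. YIPF6, a Golgi membrane protein, had 3′ UTR peaks of 0.57 and 0.87 in the authors' deposited table, both above the level. Its relative YIPF5, which acts between ER and Golgi, had coding peaks on both sides of it, at −0.63 and 0.42 in the authors' deposited table.

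The 6 SNARE genes were split evenly around the level, with a median of 0.12, 3 above and 3 below. STX2, a syntaxin of the plasma membrane, had 0.80 at 1 peak in the authors' deposited table. STX3, also of the plasma membrane, had peaks of 0.08, 0.33 and 0.29 in the authors' deposited table, within 82 nt, the first overlapping the second by 16 nt. VAMP3, a SNARE of recycling endosomes, had adjoining peaks of 0.17 and 1.01 in the authors' deposited table (chr1:7839866-7839924 and chr1:7839925-7839954, plus strand), so that neighbouring sites differed by 0.84. STX7, of late endosomes, had −0.06 at 1 peak in the authors' deposited table. STX16 and STX6, which act together at the trans-Golgi network, had the lowest gene values of the group. Both 5′ UTR peaks of STX16 lay below 0, at −0.74 and −0.10 in the authors' deposited table. The single 3′ UTR peak of STX6 (chr1:180944321-180944405, minus strand) had −0.88 in the authors' deposited table and was, with 84 nt, the longest peak of the members.

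Of the 5 clathrin and adaptor genes among the members, AP1S3 lay above the level and 4 below, while the adaptor gene AP2A1, which the name pattern leaves out, had 1.32. CLTC, the clathrin heavy chain, had 4 coding peaks and 1 in the 3′ UTR, with 0.79, −0.49, −0.08, 0.30 and −0.25 from 5′ to 3′ in the authors' deposited table. No direction was shared along this mRNA, and its median was −0.08. The log averages of CLTC, −9.45 to −8.77, were among the lowest of the members. For AP-2, the adaptor of endocytosis, the beta subunit gene AP2B1 had a pair of overlapping 3′ UTR peaks at −0.02 and −0.08 in the authors' deposited table. The small subunit gene AP2S1 had −1.06 in coding sequence (chr19:47341725-47341762, minus strand) and −0.47 in the 5′ UTR in the authors' deposited table. The first of these was the lowest log ratio of the 52 peaks. AP3D1, the delta subunit of the AP-3 adaptor of lysosome-related organelles, had −0.53 at 1 peak in the authors' deposited table. AP1S3, a small subunit of the AP-1 adaptor of the trans-Golgi network and endosomes, had the highest log ratio of the members, 1.97, at a coding peak (chr2:224640688-224640713, minus strand) in the authors' deposited table. Its 3′ UTR peak had 0.33 in the authors' deposited table, so its gene value of 1.15 rests on 2 unlike peaks.

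Sorting nexins, which bind endosomal membranes, lay above the level in 4 of 5 genes, with a median of 0.47. SNX16 had the highest gene value of all members, 1.53, from 1 peak in the 5′ UTR. Among the sorting nexins SNX8 followed, with 0.92 at a 3′ UTR peak (chr7:2291499-2291527, minus strand) in the authors' deposited table. SNX17, which returns receptors and integrins from endosomes to the surface, had 3′ UTR peaks of 0.47, −0.02 and 0.83 from 5′ to 3′ in the authors' deposited table, 83 and 43 nt apart. Its last peak (chr2:27599814-27599837, plus strand) had the highest log average of the members, −2.74, and the others −6.34 and −5.99. SNX5, a partner in retrograde sorting to the Golgi, had 0.18 at 1 peak in the authors' deposited table and lay 0.01 above the level. SNX9, which works with dynamin in endocytosis, was the exception, with −0.62 at a 3′ UTR peak in the authors' deposited table.

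Both ESCRT genes among the members lay above 0, while the other VPS genes held both signs. VPS37A, a subunit of ESCRT-I, had a gene value of 0.58, and VPS4A, the ATPase that takes ESCRT-III apart, one of 0.08. The lipid transfer protein gene VPS13A had coding peaks of 0.48 and 0.86 in the authors' deposited table, and its relative VPS13C 0.18 at 1 coding peak. VPS54, a subunit of the GARP tether of the trans-Golgi network, had the lowest gene value of all members, −0.92, at 1 peak in the 3′ UTR (chr2:64120186-64120224, minus strand).

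Peaks of the same gene were often alike in sign. Of the 13 members with 2 or more peaks, 6 had all peaks above 0 (46.2%, against 28.1% of 750 such genes), 3 all below (23.1%, against 13.3%) and 4 on both sides (30.8%, against 58.5%). Those on both sides were CLTC, SNX17, TMED10 and YIPF5. The SD of the log ratio within genes was 0.48 over these 13 members and 0.63 over the 750 genes. Overlapping peaks, as in AP2B1 and STX3, share reads and are not separate measurements. Of the 13 members 9 had 2 peaks, as had 393 of the 750 genes, and genes with more peaks can more easily hold both signs. The part of peak number in these shares was not tested.

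**Figure D3:**
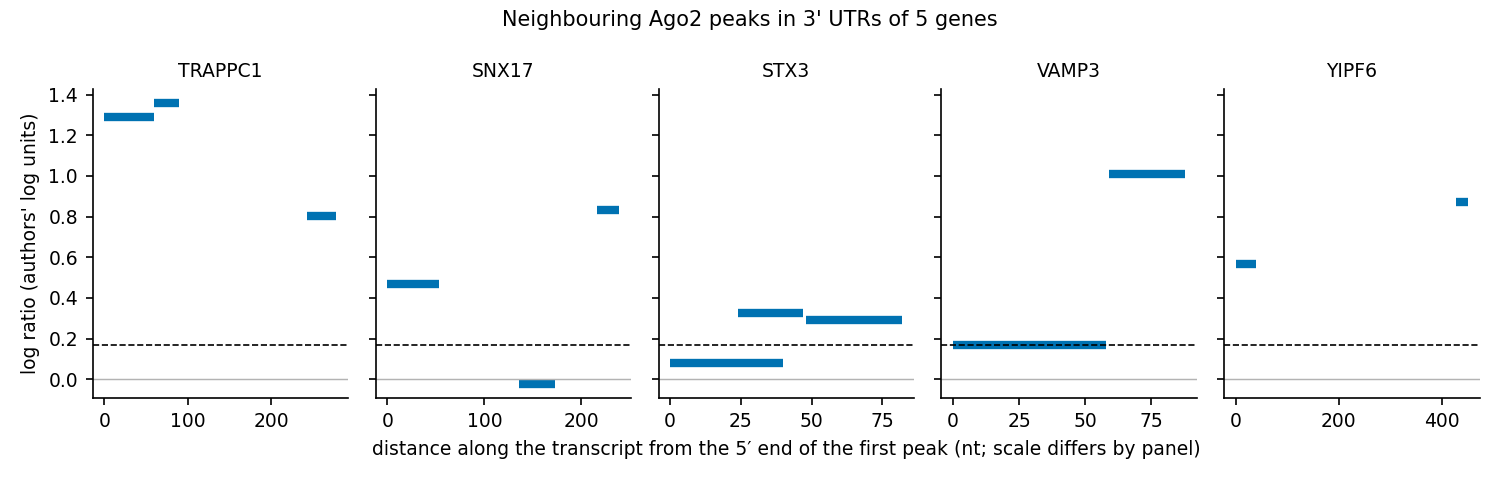
Log ratio (authors' log units) of each 3′ UTR peak in TRAPPC1, SNX17, STX3, VAMP3 and YIPF6 against the distance along the transcript from the 5′ end of the first peak (nt); bars span the peaks, and the dashed line is the level of all genes, 0.17. TRAPPC1 and YIPF6 lie wholly above the line, while the adjoining peaks of VAMP3 are 0.84 apart.

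The member peaks with the highest log averages had log ratios above 0. In the upper quartile of the log average of all peaks (above −5.55), 12 of 12 member peaks, from 10 genes, lay above 0 (exact Clopper-Pearson interval 73.5% to 100%), with a median of 0.84. Over all 1180 peaks of that range, 56.9% lay above 0, and the median was 0.11, where 59.1% of all 4718 peaks lay above 0. These 10 genes were AP1S3, SNX16, TRAPPC1, SNX8, YIPF6, TMED4, SNX17, STX2, VPS37A and VAMP3. In the other quartile ranges, from higher to lower, 10 of 18, 5 of 14 and 4 of 8 member peaks lay above 0. Across the 52 member peaks Pearson's r between log average and log ratio was 0.39 and Spearman's rho 0.41, against −0.02 and −0.03 across all 4718 peaks. In 3′ UTRs rho was 0.58 over 30 member peaks and in coding sequence 0.06 over 18. Pearson's r was 0.50 and 0.28, and thus less far apart. Over all 3′ UTR peaks rho was −0.06, and over all coding peaks −0.02. Both values of a peak come from the same CLIP data, and peaks of a gene share its RNA level. The limit was set after the values were seen, and peaks of a gene are not independent, so the interval above has no assured coverage. Just below the limit, the STX7 peak (log average −5.57) had a log ratio of −0.06. In the upper 33.3% by log average 15 of 21 member peaks lay above 0, against 56.5% of all peaks. The peaks at or below 0 in that range were those of AP2S1, SNX17, STX6, STX7 and YIPF5.

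**Figure D4:**
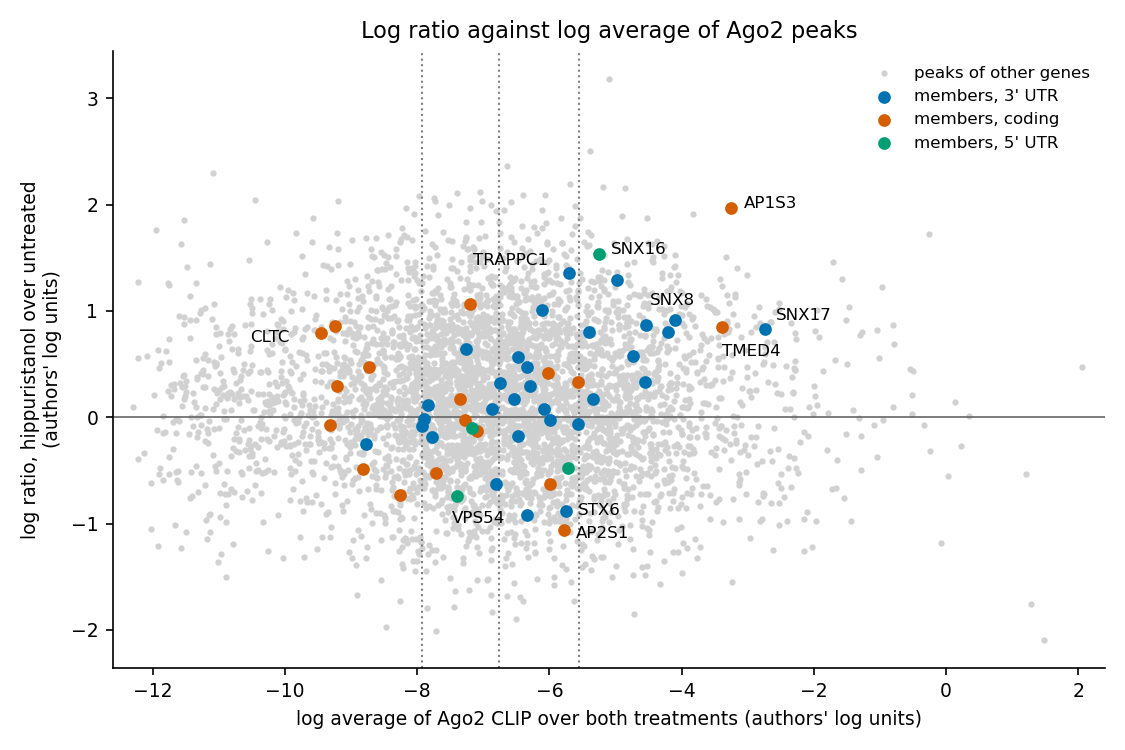
Log ratio against log average (both in the authors' log units) for the 52 member peaks, coloured by annotation, over the peaks of other genes in grey; dotted lines are the quartiles of the log average of all peaks. To the right of the last dotted line, at −5.55, all 12 member peaks lie above 0.

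The other genes of the pathway were taken from a list of 141 genes that the names above do not match, of which 37 had a peak. Their median was 0.32 (95% interval 0.07 to 0.71), with 22 above the level (59.5%, interval 42.1% to 75.2%, against 50.0% of all genes). More than 0.5 above it were 14 (37.8%, against 21.0%), and more than 0.5 below it 7 (18.9%, against 22.1%). The highest gene values were those of TRAM2 at 1.68 and SRPR at 1.52, which bring new proteins into the ER, of EXOC6, a subunit of the exocyst tether, at 1.38, and of AP2A1, the alpha subunit of AP-2, at 1.32. AP-2 subunit genes thus ran from −0.77 in AP2S1 to 1.32 in AP2A1. The lowest were RAB11A, a Rab GTPase of recycling endosomes, at −1.36, STXBP3, which binds syntaxins, at −1.26, SSR3, a subunit of the translocon-associated complex, at −0.95, and RAB14, of early endosomes and the Golgi, at −0.76. Of the 7 Rab genes, 4 lay above the level, RAB1A of ER to Golgi transport at 0.81 among them. The 4 genes of the list named ARF, ARFGAP or ARFGEF lay below the level, ARF5 at −0.35, ARFGAP2 at −0.24, ARF3 at −0.19 over 5 peaks and ARFGEF1 at −0.15. This group was picked after the values were seen, and 3 of the 4 lay within 0.5 of the level. Of 7 genes of entry into the ER (SRPR, TRAM, SPCS and SSR genes), 4 lay above the level. NSF and NAPG, which take used SNARE complexes apart, had 0.71 and 0.68 at 1 peak each.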

How the data were processed

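Per the labels' protocols, Ago2 CLIP and RNA-seq were made from 293S cells. The assembly hg19 and the tools DESeq, TopHat and Bowtie (0.12.8) are named, with no role or order, per the submitters' processing notes. Per the file headers, the deposited values are scores, a normalized log average and log ratio per peak. The sources do not state the kind of normalization, the log base, the peak caller, the filters, the pooling over libraries or whether starts count from 0 or 1.

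Peaks of a gene with identical values were counted once (50 in all, 3 in the members). A gene's value was the median log ratio of its peaks. Medians have order-statistic and shares exact Clopper-Pearson intervals at 95%. The tests laid down for values per library could not be run on pooled scores, so no p-value is given. Transcripts were those of GENCODE 29 (GRCh38), matched by RefSeq identifier for 2024 genes and all 33 members. Coordinates of peaks are hg19, as the table gives them.

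The members, role groups, pathway list and microRNA families were chosen with earlier results of these data known. Every member is reported. Of the pathway list, the 4 highest and 4 lowest genes were named by rule, and the rest were chosen after their values were seen. Scripts used Python 3.11.15, pandas 2.3.3 and scipy 1.17.1. The summaries were tested on simulated data, in gene sets larger than the members and with independent noise per peak. Interval coverage for sets as small as the members was not tested. Some sequences are not reported here.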

Additional observations from a re-analysis of the deposited data

How the results depend on the processing

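No paired analysis was possible because the table holds 1 pooled value per peak, and for the same reason no culture could be left out. The member median of 0.18 stayed within its interval under all 10 other settings, between 0.11 with coding peaks only (13 genes) and 0.40 with peaks at or above the median log average (20 genes). With C7orf43 added, after the data were seen, it was 0.13. The median minus the level of all genes, 0.0066, was −0.0045 with the peak of highest log average per gene and −0.04 with coding peaks only, and 0.23 with peaks at or above the median log average. The count of 17 members above the level was 11, of 20 with a 3′ UTR peak, when only those peaks were used. With a threshold of 1 in place of 0.5, 2 members lay above and 2 below, in place of 9 and 7, where 5.69% and 5.87% of all genes did. With a threshold of 0.3 they were 13 and 8, against 30.7% and 31.3% of all genes. AP1S3 had 1.97 by its peak with the higher log average and 0.33 by its 3′ UTR peak, in place of 1.15. Leaving out the SEC14-like genes changed nothing, since none has a peak. Of 12 member peaks in the upper quartile of the log average, 12 lay above 0. With 1 peak per gene it was 10 of 10 (59.0% of all genes' peaks), in 3′ UTRs 9 of 9 (56.5%), in the upper 33.3% 15 of 21 (56.5%) and above the median log average 22 of 30 (57.9%). For the pathway list it was 10 of 12 (56.9%), with ARF5 and EPN1 below. These limits were chosen after the values were seen. Depth is unknown, so the precision of a single peak could not be given, and 20 of 33 genes rest on 1 peak.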
